A study of Canis lupus familiaris with 12 samples.

Results

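The cadherins and their cytoplasmic partners were followed as 7 genes in MDCK cells, an established line of dog kidney epithelium, with and without Yoda1. They are CDH1, CDH2, CDH3, CTNNB1, JUP, LIMA1 and AJUBA, taken by symbol from the deposited gene tables, which hold 31121 gene rows, 13022 of them paired with a symbol. All 7 passed the filter on low counts, among 14169 tested genes. Bulk RNA sequencing was done on 12 libraries in 4 groups of 3. Group T1 received 25 µM Yoda1, a chemical agonist of the stretch-gated channel Piezo1, for 12 h, and group T2 received the same dose for 24 h. Groups C1 and C2 had no Yoda1, and the deposited sample sheet places them at 12 h and 24 h. No source used here names a vehicle for the controls. All groups were grown in the same serum-containing medium, and all come from this single line. Nothing in the labels says that replicates came from different cultures, and the p-values reflect only the variation among these libraries, which could be technical. The series asks how Piezo1 activation bears on the adhesion genes of an epithelium that is closing a gap.

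Classical cadherins are single-pass membrane proteins that bind the same cadherin on the neighbouring cell and hold adherens junctions together. The tail of the cadherin binds beta-catenin or its close relative plakoglobin, which in turn bind alpha-catenin, and alpha-catenin couples the complex to actin filaments. CDH1 (ENSCAFG00845010704) encodes E-cadherin, the principal cadherin of epithelia. CDH3 (ENSCAFG00845010963) encodes P-cadherin and CDH2 (ENSCAFG00845012116) encodes N-cadherin, which is typical of neural and mesenchymal cells. CTNNB1 (ENSCAFG00845017609) encodes beta-catenin, which also acts in the nucleus as the co-activator of Wnt signalling, and JUP (ENSCAFG00845011719) encodes plakoglobin, which also sits in desmosomes. LIMA1 (ENSCAFG00845017111) encodes EPLIN, an actin-bundling protein that binds alpha-catenin. AJUBA (ENSCAFG00845002700) encodes a LIM-domain protein that is drawn to junctions through alpha-catenin and inhibits the LATS kinases of the Hippo pathway. In a RefSeq gene table of the assembly UU_Cfam_GSD_1.0, used only for gene order, 1 protein-coding gene lies between CDH1 and CDH3.

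Library totals ran from 20709218 to 38889592 counts. The first principal component held 23.3% of the variance and placed the 6 treated libraries apart from the 6 controls. C2 replicates 1 and 2 lay farthest from their group mean, and C2 replicate 1 held the highest CTNNB1 level of all 12 libraries. Levels are given as CPM, counts relative to the TMM-scaled library size, for comparison between libraries, and as the deposited TPM, which is also per transcript length, for comparison between genes. A gene was called changed at an adjusted p under 0.05 in edgeR's quasi-likelihood test over all tested genes, and errors beside log2 fold changes are standard errors. In bulk RNA, fewer cells of a type and less RNA per cell cannot be told apart.

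After 12 h with Yoda1, transcripts of E-cadherin and of the actin-side partner EPLIN were lower, and the other 5 genes did not pass the test. The calls were 2 of the 7 genes, both lower, where 6.99% of all tested genes were called in either direction and 3.97% were called lower. After 24 h, E-cadherin and EPLIN were lower again, while AJUBA and the scarce N-cadherin transcript were higher. That made 4 of 7 called, 2 in each direction, where 18.6% of all tested genes were called, 8.96% higher and 9.61% lower. CDH1 and LIMA1 were called lower at both times, as were 2.43% of all tested genes. The median log2 fold change of the 7 genes was -0.27 at 12 h and -0.29 at 24 h, beside 0.01 and -0.01 over all tested genes. Treated and control libraries did not overlap for 5 of the 7 genes at 12 h and for 6 of 7 at 24 h, which also held for 32.7% and 32.8% of all tested genes. The 7 genes were chosen with earlier results of these data known, so the counts beside these shares are a description only. Of the genes called at 12 h, 43.1% were higher, which became 59.4% when library size alone set the scaling and 64.9% in limma on log2(TPM + 1); at 24 h the share was 48.3%, and 59.5% in limma. The directions of the 4 called members stayed the same under each scaling tried. The background counts depend on single libraries: leaving out 1 of the 12 moved the number of called genes between 185 and 1695 at 12 h and between 1138 and 3332 at 24 h.

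**Figure D1:**
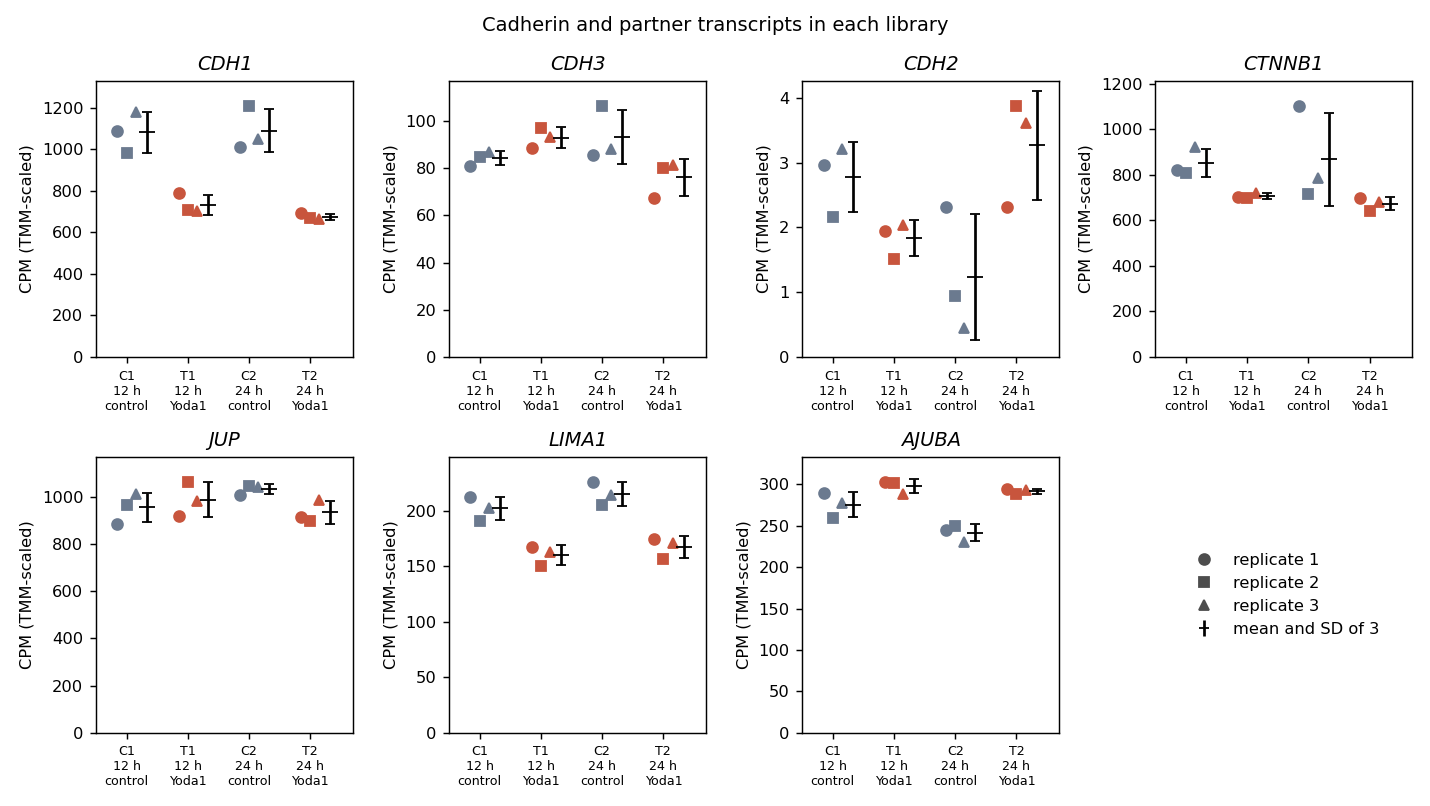
CPM of each of the 7 genes in each library (points, 3 per group) with the group mean and SD, for C1, T1, C2 and T2, on a linear axis from 0. CDH1 and LIMA1 sit lower in all treated libraries than in the controls of the same time, AJUBA is higher in T2 than in C2, and the CDH2 points of C2 spread from 0.45 to 2.32 CPM.

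The replicate numbers were taken to pair C1 with T1, from the correlation of the libraries' deviations and not from the labels. Those correlations were low (r from 0.11 to 0.28). They came from the same libraries that the block fit then tested, so the calls of that fit are not separate evidence. When the replicate number was kept as a block in C1 and T1 alone, a fit with 2 residual degrees of freedom, 5 of the 7 genes were called, where 30.6% of all tested genes were. CDH1 (adjusted p = 5.8e-05) and LIMA1 (0.00017) stayed called. CTNNB1 (log2 fold change -0.27, adjusted p = 0.0025), CDH2 (-0.59, 0.032) and CDH3 (0.14, 0.044) were called in that fit in addition. JUP (0.57) and AJUBA (0.12) were not. With the block over all 12 libraries, an alternative chosen after seeing the data, only CDH1 (adjusted p = 0.011) and LIMA1 (0.0094) were called at 12 h, while CTNNB1 (0.21), CDH2 (0.47) and CDH3 (0.28) were not.

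**Figure D2:**
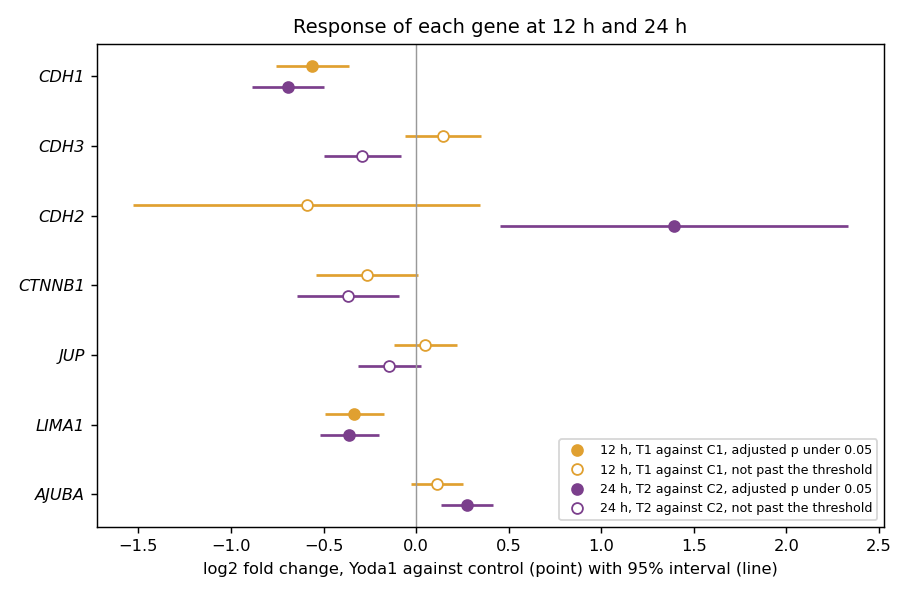
Log2 fold change of each of the 7 genes with its 95% interval, for T1 against C1 and for T2 against C2, with filled points for an adjusted p under 0.05. The intervals of CDH1 and LIMA1 lie below 0 at both times, and the widest intervals belong to CDH2.

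E-cadherin was the member with the lowest adjusted p at both times. The 12 h controls gave CDH1 levels of 1086, 979.8 and 1178 CPM, and the treated libraries gave 788, 707 and 705 CPM. At 24 h the controls gave 1013, 1208 and 1051 CPM and the treated libraries 693, 669 and 664 CPM. The lowest of the 6 controls stood above the highest of the 6 treated libraries. The T2 libraries lay within a coefficient of variation of 2.28%, against 9.49% in C2. The change was -0.56 ± 0.09 on the log2 scale at 12 h (adjusted p = 0.0044), with a 95% interval from -0.76 to -0.37, and the level fell by 32.2%. At 24 h it was -0.69 ± 0.09 (adjusted p = 0.00057), with an interval from -0.89 to -0.50, and the level fell by 38.1%. In a ranking of all tested genes by absolute log2 fold change, 10.8% were at least as large at 12 h and 10.1% at 24 h. Each fit that left out 1 library kept both calls, with log2 fold changes from -0.63 to -0.49 at 12 h and from -0.74 to -0.61 at 24 h.

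P-cadherin did not pass the test at either time, and its values moved in opposite directions. CDH3 stood at 80.9, 84.8 and 86.7 CPM in C1 and at 88.6, 97.1 and 93.4 CPM in T1. All 3 treated libraries were above all 3 controls at 12 h, by 0.14 ± 0.10 on the log2 scale (adjusted p = 0.40). In C2 it stood at 85.5, 106.3 and 87.9 CPM and in T2 at 67.2, 79.9 and 81.4 CPM. All 3 treated libraries were below all 3 controls at 24 h, by -0.29 ± 0.10 (adjusted p = 0.051). The 24 h value passed the threshold without C2 replicate 1 (-0.35, adjusted p = 0.025). It also passed in DESeq2 (-0.29, adjusted p = 0.027) and with the block over all 12 libraries (-0.29, adjusted p = 0.025).

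N-cadherin was close to the lower end of what these libraries can measure. CDH2 had 79, 79 and 65 counts in C1, 61, 47 and 53 in T1, 90, 31 and 16 in C2 and 71, 110 and 134 in T2. In CPM this was 2.96, 2.17 and 3.22 in C1 and 1.95, 1.52 and 2.03 in T1, with all treated libraries below all controls. The 12 h difference of -0.59 ± 0.43 on the log2 scale did not pass the test (adjusted p = 0.45). At 24 h the controls held 2.32, 0.94 and 0.45 CPM and the treated libraries 2.31, 3.87 and 3.62 CPM. CDH2 rose at 24 h by 1.39 ± 0.43 on the log2 scale (adjusted p = 0.042), and the lowest treated library lay just under the highest control. The T2 mean of 3.27 ± 0.84 CPM (SD, n = 3) stood beside 2.78 ± 0.55 CPM in C1 and 1.23 ± 0.97 CPM in C2, so the 24 h comparison was made against the lowest of the 4 groups. The call held in 2 of the 12 fits that left out a library, without C2 replicate 1 (2.24, adjusted p = 0.0012) and without T2 replicate 1 (1.59, 0.042). It was lost without any other library, with log2 fold changes down to 0.99 without C2 replicate 3 and adjusted p up to 0.13 without T2 replicate 2.

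The catenin that binds the cadherin tail in adherens junctions did not pass the test at either time in the fit of all libraries. CTNNB1 stood at 822, 808 and 921 CPM in C1 and at 702, 697 and 722 CPM in T1. All T1 libraries were below all C1 libraries, by -0.27 ± 0.13 on the log2 scale (adjusted p = 0.23). C2 held 1102, 718 and 786 CPM and T2 held 698, 641 and 682 CPM. The T2 libraries were again below every control, by -0.37 ± 0.13 (adjusted p = 0.062), and the distance depended on the control library at 1102 CPM. Without C2 replicate 1 the 24 h value was -0.16 (adjusted p = 0.18), and without C2 replicate 2 it was -0.49 (adjusted p = 0.0098). Without C2 replicate 1, the 12 h value of -0.27 passed the threshold (adjusted p = 0.033). The 12 h value also passed in the edgeR fit of C1 and T1 alone (-0.27, adjusted p = 0.041). DESeq2 called the 24 h value (-0.36, adjusted p = 0.032).

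Plakoglobin had the smallest absolute fold change of the 7 genes at both times. JUP had 887, 968 and 1012 CPM in C1 and 919, 1065 and 984 CPM in T1, and the groups overlapped. The log2 difference was 0.05 ± 0.08 (adjusted p = 0.76), with a 95% interval from -0.12 to 0.22. At 24 h, C2 had 1009, 1048 and 1042 CPM and T2 had 915, 900.4 and 988 CPM, with all treated libraries below the controls. That difference of -0.14 ± 0.08 did not pass the test (adjusted p = 0.23), and its interval ran from -0.32 to 0.03. The interval of JUP at 12 h lies above that of CDH1, and the 2 intervals at 24 h do not overlap either.

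On the actin side of the complex, EPLIN fell at both times. LIMA1 had 213, 191 and 202 CPM in C1 and 167, 150.2 and 163 CPM in T1. At 24 h it had 226, 205 and 214 CPM in C2 and 175, 156 and 171 CPM in T2. Every treated library was below every control library of either time. The change was -0.34 ± 0.07 on the log2 scale at 12 h (adjusted p = 0.019), where the level fell by 20.7%. It was -0.36 ± 0.07 at 24 h (adjusted p = 0.0054), where the level fell by 22.2%. The 24 h call held in each of the 12 fits that left out a library (adjusted p from 0.0038 to 0.036). The 12 h call was lost without C1 replicate 1 or 3 and without any 1 of the 3 T1 libraries, with adjusted p up to 0.075 and log2 fold changes from -0.38 to -0.29. It was also lost in limma on log2(TPM + 1), where the value was -0.26 (adjusted p = 0.10).

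AJUBA was higher in T2 than in C2. Its levels were 289, 259 and 278 CPM in C1 and 303, 302 and 288 CPM in T1, and the groups overlapped through a single pair of libraries. The 12 h value of 0.11 ± 0.06 did not pass the test (adjusted p = 0.31). C2 gave 245, 249 and 230.2 CPM and T2 gave 294, 288 and 293 CPM. All T2 libraries were above all C2 libraries, with a rise of 0.27 ± 0.06 on the log2 scale (adjusted p = 0.013), or 20.8%. The C2 libraries were also all below the C1 libraries (-0.19 ± 0.06 for C2 against C1, adjusted p = 0.29), and the T1 and T2 means were 298 ± 8.22 and 292 ± 3.16 CPM. The 24 h comparison was thus made against the group with the lowest AJUBA mean. The 24 h call was lost without C2 replicate 3 (0.24, adjusted p = 0.052) and without T2 replicate 3 (0.27, adjusted p = 0.053).

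**Figure D3:**
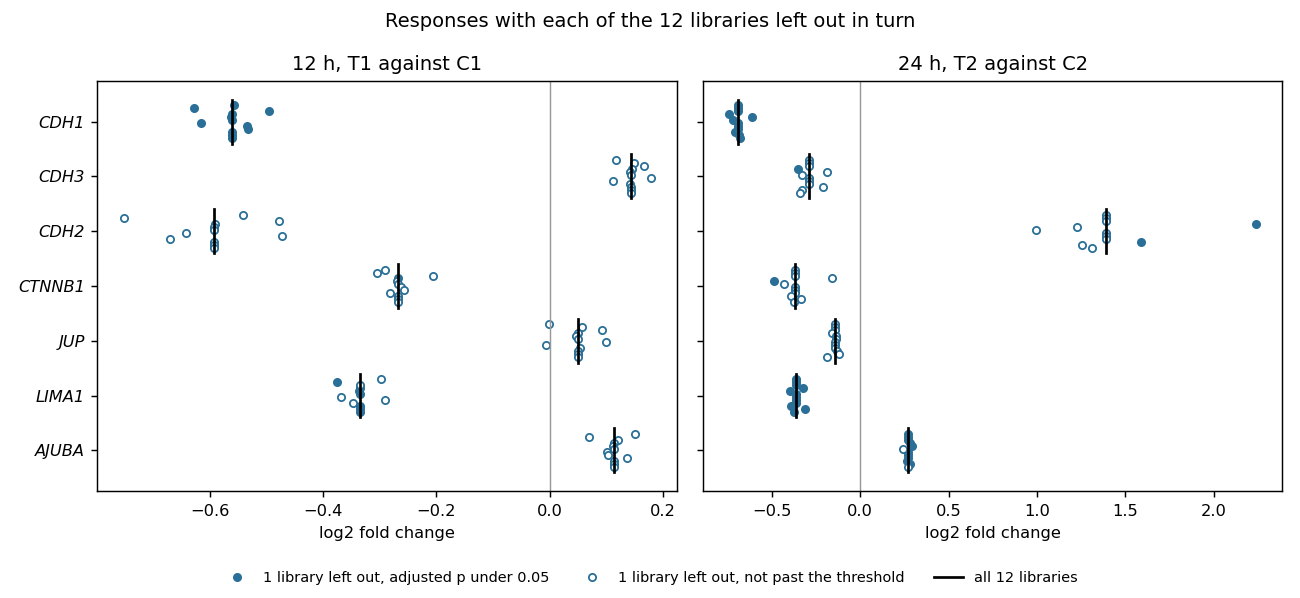
Log2 fold change of each gene when each of the 12 libraries is left out in turn (points, filled at an adjusted p under 0.05), with a line for the value from all libraries, at 12 h and 24 h. CDH1 stays filled in every fit at both times, LIMA1 in every fit at 24 h, and CDH2 at 24 h spreads from 0.99 to 2.24.

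The 2 responses were then compared directly. For none of the 7 genes did the 24 h response differ from the 12 h response at the adjusted threshold in edgeR, where 0.155% of all tested genes did. At an unadjusted p under 0.05 there were 2 genes, CDH2 with a difference of 1.98 ± 0.61 on the log2 scale (adjusted p = 0.27) and CDH3 with -0.44 ± 0.14 (adjusted p = 0.27). DESeq2 and limma also called 0 of 7. The difference of CDH2 passed the threshold without C2 replicate 1 (2.83, adjusted p = 0.0085). For CDH1 the difference was -0.13 with a 95% interval from -0.41 to 0.14, and for LIMA1 it was -0.03 with an interval from -0.25 to 0.20. The controls of the 2 times were also compared, and 0 of 7 genes were called between C2 and C1 by edgeR, DESeq2 or limma, where 0.162% of all tested genes were called by edgeR. Unadjusted p was under 0.05 for CDH2 (-1.15 ± 0.44) and AJUBA, and CDH2 was called without C2 replicate 1 (-1.996, adjusted p = 0.020). Between T2 and T1, edgeR, DESeq2 and limma called 0 of 7, where edgeR called 0.127% of all tested genes, and CDH3 (-0.29 ± 0.10) had an unadjusted p under 0.05. These comparisons share their groups with the ones above and are not further evidence for them.

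Per transcript length, plakoglobin was the most abundant of the 7 transcripts in each group. In C1 the TPM means were 483 ± 37.6 for JUP, 423 ± 54.0 for CDH1 and 384 ± 40.2 for CTNNB1, and the libraries of neighbours in this order overlapped. AJUBA followed at 152 ± 11.3, LIMA1 at 92.8 ± 7.92, CDH3 at 61.5 ± 3.92 and CDH2 at 1.28 ± 0.30 TPM, with no overlap between neighbours. In T2 the order of CDH1 and CTNNB1 was the other way round, with JUP at 498 ± 28.6, CTNNB1 at 321 ± 23.6 and CDH1 at 279 ± 15.04 TPM. AJUBA stood there at 171 ± 6.00, LIMA1 at 81.1 ± 7.05, CDH3 at 58.9 ± 4.28 and CDH2 at 1.58 ± 0.39 TPM, again without overlap between neighbours. In T1 the LIMA1 libraries (70.4 to 82.9 TPM) overlapped those of CDH3 (69.9 to 72.5 TPM). Within a library, beta-catenin TPM exceeded E-cadherin TPM in 6 of 6 treated libraries and in 1 of 6 controls, C2 replicate 1.

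Ratios of TPM within a library show the stoichiometry of the transcripts without regard to the library's scaling. The plakoglobin to E-cadherin ratio was 1.06, 1.28 and 1.11 in C1 and 1.504, 1.95 and 1.81 in T1, then 1.28, 1.13 and 1.28 in C2 and 1.70, 1.74 and 1.93 in T2. Treated libraries were above controls without overlap at both times, by 1.52-fold and 1.46-fold in the means. JUP itself was not called at either time (0.05 and -0.14 on the log2 scale). Each ratio to CDH1 here carries the fall of CDH1 described above and is not separate evidence. The AJUBA to CDH1 ratio had means of 0.361 ± 0.028 in C1 and 0.574 ± 0.033 in T1, 1.59-fold higher, and of 0.319 ± 0.031 in C2 and 0.614 ± 0.016 in T2, 1.93-fold higher, again without overlap. The ratio of the actin-side partners AJUBA and LIMA1 to each other went from 1.64 ± 0.02 to 2.24 ± 0.16 at 12 h and from 1.37 ± 0.07 to 2.11 ± 0.11 at 24 h. LIMA1 to CDH1 was higher in the treated libraries too, 0.257 ± 0.013 against 0.220 ± 0.016 at 12 h and 0.291 ± 0.015 against 0.234 ± 0.032 at 24 h, so the fall of LIMA1 was the smaller of the 2. Beta-catenin to E-cadherin was higher without overlap at 12 h (1.12 ± 0.08 against 0.91 ± 0.04) and overlapped at 24 h (1.15 ± 0.04 against 0.94 ± 0.29), where C2 replicate 1 alone gave 1.26. With 3 libraries against 3 the exact two-sided permutation test cannot go below p = 0.1, the value that each of these non-overlapping ratios reached, or 0.12 after adjustment over the 14 ratio tests.

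**Figure D4:**
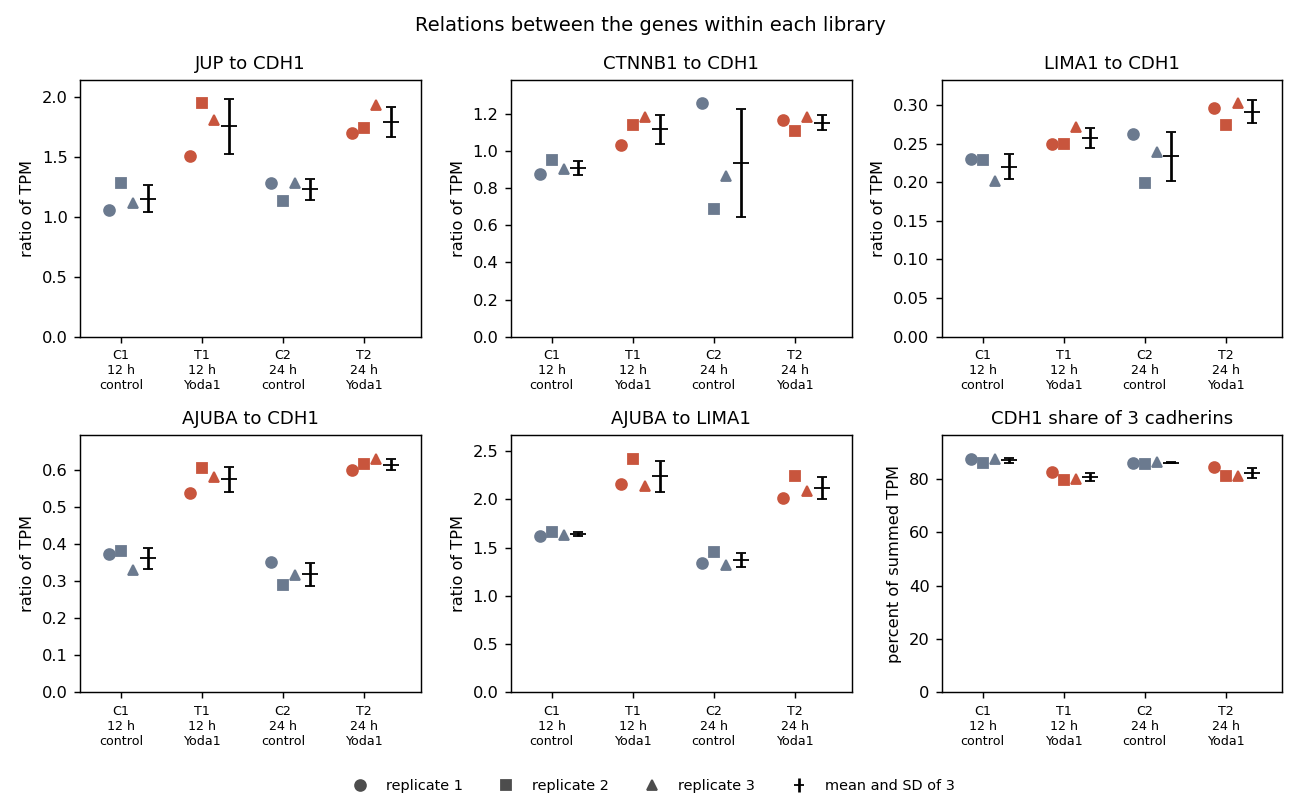
Ratios of TPM within each library, and the share of CDH1 in the summed TPM of CDH1, CDH2 and CDH3, as points per library with the group mean and SD, on axes from 0. The JUP to CDH1, AJUBA to CDH1 and AJUBA to LIMA1 ratios of treated libraries lie above those of the controls of the same time, and CTNNB1 to CDH1 overlaps at 24 h through C2 replicate 1.

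The summed TPM of CDH1, CDH2 and CDH3 was mostly CDH1 and follows its fall; the sum was not tested. It came to 486 ± 57.7 TPM in C1 and 374 ± 25.5 TPM in T1, and to 508 ± 63.1 TPM in C2 and 339 ± 10.6 TPM in T2. E-cadherin made up 87.0 ± 0.92% of that sum in C1, 80.6 ± 1.56% in T1, 86.1 ± 0.32% in C2 and 82.1 ± 1.87% in T2. P-cadherin made up 12.7 ± 0.95%, 19.1 ± 1.56%, 13.8 ± 0.33% and 17.4 ± 1.75% in the same order, and N-cadherin at most 0.57% in any library. Beta-catenin and plakoglobin together stood at 1.79 ± 0.11 TPM per TPM of the 3 cadherins in C1 and 2.31 ± 0.20 in T1, and at 1.86 ± 0.32 in C2 and 2.41 ± 0.11 in T2. The files hold 14 gene rows with a CDH symbol and number, of which 4 passed the filter (CDH13 is the other) and 7 had 0 counts in all libraries. Cadherins in rows without a symbol are not among these, so the 3 summed genes may not be the whole cadherin pool.

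Other genes of cadherin biology were taken as lists, and unless another fit is named their calls are edgeR's over all 12 libraries. Genes were matched by symbol, which 7682 of the 14169 tested genes had. The listed symbols found ran from 6 of 19 for the desmosome to 14 of 15 for the mesenchymal markers. A listed gene that was not found may sit in a row without a symbol, so the counts describe only the rows found. The lists were chosen with earlier results of these data known, so no excess over all tested genes can be read from them. Beside the counts of these lists, 6.99% of all tested genes were called at 12 h and 18.6% at 24 h. With the replicate block in C1 and T1, which is the block at 12 h below, 30.6% were called. The same block in C2 and T2, where the numbers were not taken as pairs, called 306 of 14169 genes at 24 h. Among 8 tested rows of other cadherin superfamily genes, edgeR called 1 lower at 12 h, 2 lower at 24 h and 0 higher at either time. Limma on log2(TPM + 1) called 1 higher at 12 h, and without C2 replicate 2 edgeR called 1 higher and 3 lower at 24 h. The 24 h count was 1 without C2 replicate 1 or 3 and without T2 replicate 1 or 3. The median log2 fold change of the list was -0.18 at 12 h and -0.45 at 24 h. CLSTN1, which encodes calsyntenin-1, fell from 247 ± 2.94 to 173 ± 6.29 CPM at 12 h (-0.51, adjusted p = 0.0011) and from 253 ± 15.2 to 160 ± 5.20 CPM at 24 h (-0.66, adjusted p = 0.00016), and both calls held in 12 of 12 fits that left out a library. A second row with the symbol CLSTN1 was not called. CDH13, a cadherin anchored by a lipid instead of a membrane span, fell at 24 h from 1.24 ± 0.37 to 0.50 ± 0.15 CPM (-1.32, adjusted p = 0.025; 8 of 12 fits). The 2 rows of the list with the highest CPM, the giant atypical cadherin FAT1 (863 ± 115 CPM in C1, 708 ± 102 CPM in T1) and the protocadherin PCDH1 (231 ± 12.2 and 228 ± 10.9 CPM), were not called. Per transcript length the called row of CLSTN1, with a mean of 86.7 TPM over all libraries, stood beside 85.2 TPM for FAT1 and 55.4 TPM for PCDH1. The list had 3 lower calls with the block at 12 h, and 1 lower call at 24 h with the block in C2 and T2.

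The other catenins had 0 calls of 6 at 12 h in edgeR, with 0 at an unadjusted p under 0.05 and 0 in DESeq2 and limma. At 24 h, 1 rose and 1 fell, and neither was called without C2 replicate 3, T2 replicate 2 or T2 replicate 3. The block in C2 and T2 called 0 of the list at 24 h. ARVCF, a catenin of the p120 family that binds the membrane-near part of the cadherin tail, rose from 43.9 ± 4.16 to 55.6 ± 2.59 CPM (0.34, adjusted p = 0.035; 7 of 12 fits that left out a library). PKP4, of the same family, fell from 347 ± 60.5 to 247 ± 31.6 CPM (-0.49, adjusted p = 0.016; 9 of 12 fits). CTNNA1, the alpha-catenin that couples the complex to actin, had 815 ± 47.8 CPM in C2 and 709 ± 10.9 CPM in T2 (adjusted p = 0.051). The 8 tested actin linkers, which include the alpha-actinins ACTN1 and ACTN4, the scaffold TJP1 and the LIM protein TRIP6, had 0 calls at either time in edgeR, DESeq2 or limma, although without C2 replicate 2 edgeR called 1 lower at 12 h and 2 higher at 24 h. At an unadjusted p under 0.05 they had 1 at 12 h and 0 at 24 h. The block at 12 h called 1 of them higher and 2 lower. ACTN4 stood at 920 ± 143 CPM in C2 and 950.0 ± 35.8 CPM in T2.

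Of 22 tested genes of cadherin turnover and phosphorylation, 1 rose and 2 fell at 12 h, and 2 rose and 4 fell at 24 h. The 12 h count of 3 was 0 without C1 replicate 3 or T1 replicate 3 and in limma, 1 without C1 replicate 1 or T1 replicate 1, and 6 in DESeq2. CBLL1, the Hakai ubiquitin ligase that marks E-cadherin for endocytosis, rose from 31.4 ± 3.00 to 41.1 ± 4.14 CPM at 12 h (0.39, adjusted p = 0.033) and from 35.4 ± 2.11 to 46.3 ± 2.73 CPM at 24 h (0.39, adjusted p = 0.016). The calls of CBLL1 held in 6 and 9 of 12 fits that left out a library. RAB11A, the small GTPase of recycling endosomes that returns E-cadherin to the membrane, fell from 227 ± 7.41 to 183 ± 6.14 CPM at 12 h (-0.31, adjusted p = 0.012; 10 of 12 fits) and from 237 ± 10.6 to 175 ± 1.52 CPM at 24 h (-0.43, adjusted p = 0.00081; 12 of 12 fits). PTPRM, a receptor tyrosine phosphatase of cell contacts, fell at both times (-0.43, adjusted p = 0.029, 7 of 12 fits; -0.54, adjusted p = 0.0045, 12 of 12 fits). The tyrosine kinase SRC fell at 24 h from 228 ± 5.63 to 161 ± 8.49 CPM (-0.50, adjusted p = 0.00054), and its relative FYN, at low levels, rose from 1.92 ± 0.11 to 3.48 ± 0.33 CPM (0.86, adjusted p = 0.0099), each in 12 of 12 fits. ADAM10, which sheds the outer part of E-cadherin and was added here after its values were seen, fell at 24 h (-0.42, adjusted p = 0.017; 10 of 12 fits). The list's median log2 fold change was 0.05 at 12 h and -0.02 at 24 h. With the block at 12 h, 4 of the 22 were called higher and 6 lower. With the block in C2 and T2, 1 was called at 24 h, lower. The 24 h calls of RAB11A, SRC, FYN, CBLL1 and ADAM10 were lost in that fit, and that of PTPRM stayed.

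Among 12 tested transcription factors known to act on CDH1, edgeR called 1 lower at 12 h, 4 lower at 24 h and 0 higher at either time. Of all tested genes, 3.97% and 9.61% were called lower. The list was chosen with earlier results of these data known, so its counts beside these shares are a description only. DESeq2, edgeR with library size only and edgeR without T2 replicate 1 each called 1 higher at 24 h. The list's median log2 fold change was -0.16 at 12 h and -0.33 at 24 h. The 4 were 2 grainyhead-like activators of epithelial genes, the OVO-like factor OVOL1 and TFAP2A. TFAP2A fell at 24 h from 6.87 ± 1.19 to 3.02 ± 0.41 CPM (-1.18, adjusted p = 0.0010) and OVOL1 from 9.43 ± 0.97 to 5.18 ± 0.48 CPM (-0.87, adjusted p = 0.0014), each in 12 of 12 fits that left out a library. GRHL3 fell at both times (-0.55, adjusted p = 0.017, 9 of 12 fits; -0.44, adjusted p = 0.021, 10 of 12 fits), and GRHL2 fell at 24 h (-0.46, adjusted p = 0.015; 9 of 12 fits). EHF, with the highest CPM of those not called, had 93.6 ± 22.6 CPM in C2 and 77.7 ± 8.66 CPM in T2. The repressors SNAI1, ZEB1, ZEB2 and TWIST1 were not analysed here. With the block at 12 h, 2 of the list were called higher and 4 lower. With the block in C2 and T2, 0 were called at 24 h, so TFAP2A and OVOL1 lost their calls there too. At 24 h, 2 were called lower without T2 replicate 2 or T2 replicate 3, and 6 without C2 replicate 2. The 12 h count was 0 without C1 replicate 1, C1 replicate 3 or T1 replicate 3.

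**Figure D5:**
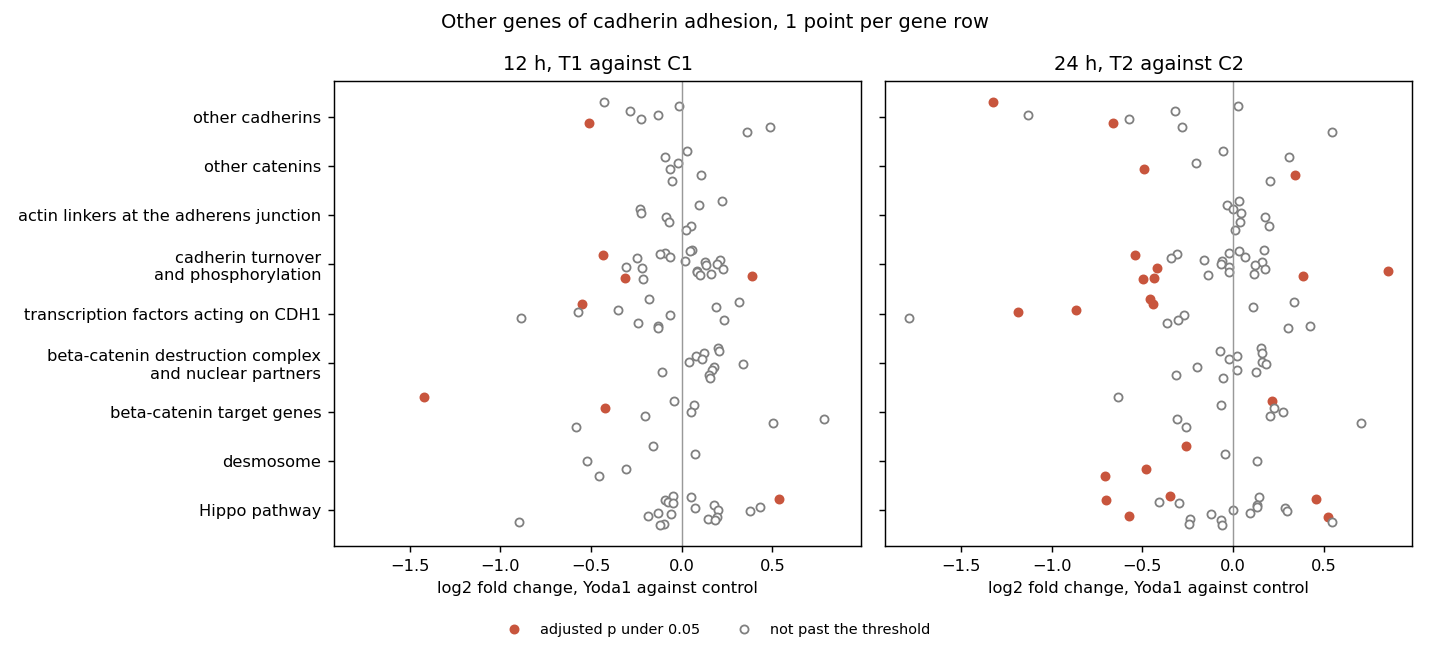
Log2 fold change of each tested gene row in 9 lists of cadherin biology, 1 point per row and filled at an adjusted p under 0.05, at 12 h and 24 h. Among transcription factors acting on CDH1 the 4 filled points at 24 h lie below 0, and the actin linkers hold no filled point.

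Of 12 tested members of the beta-catenin destruction complex and its nuclear partners, edgeR called 0 at each time, with 2 and 1 at an unadjusted p under 0.05. At 12 h, DESeq2 called 1 and limma 2, all higher, and at 24 h limma called 1 higher and DESeq2 called 0. Without C2 replicate 1 edgeR called 2 higher at 12 h and 1 lower at 24 h, and without C2 replicate 2 it called 1 higher at 12 h. CSNK1A1, the casein kinase that primes beta-catenin for degradation, had 665 ± 27.3 CPM in C2 and 675 ± 11.3 CPM in T2. With the block at 12 h, 6 of the 12 were called higher. Of 9 tested beta-catenin target genes, 2 fell at 12 h and 1 rose at 24 h. At 24 h, 4 were called higher without C2 replicate 2, and 0 without C1 replicate 1 or 3, C2 replicate 3, T1 replicate 1 or any of the T2 libraries. The block in C2 and T2 also called 0 of these targets at 24 h. The 12 h count was 1 without C1 replicate 1 or 3 and without T1 replicate 1 or 3. ASCL2, an intestinal stem cell factor, fell at 12 h from 2.30 ± 0.29 to 0.85 ± 0.22 CPM (-1.42, adjusted p = 0.0071; 12 of 12 fits that left out a library). CCND1, which encodes cyclin D1, fell at 12 h from 165 ± 14.6 to 123 ± 12.2 CPM (-0.42, adjusted p = 0.028; 8 of 12 fits) and had 111 ± 14.5 CPM in C2 and 129 ± 4.54 CPM in T2. MYC rose at 24 h from 241 ± 9.93 to 281 ± 3.53 CPM (0.22, adjusted p = 0.043; 4 of 12 fits).

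The list for plakoglobin's other home, the desmosome, had 5 tested rows, from 19 symbols of which 6 were found. Its KRT18, a keratin, is also counted among the epithelial markers below. None was called at 12 h in edgeR or limma, with 2 at an unadjusted p under 0.05, 2 in DESeq2 and 3, all lower, with the block. At 24 h, 3 fell, of which 1 was called without T2 replicate 2, 1 in limma and 1 with the block in C2 and T2. The keratin KRT18 fell from 1073 ± 49.6 to 658 ± 85.2 CPM (-0.71, adjusted p = 0.0051; 12 of 12 fits that left out a library) and the membrane protein PERP from 622 ± 12.9 to 520.4 ± 17.0 CPM (-0.26, adjusted p = 0.015; 11 of 12 fits). The desmosomal cadherin DSC1 fell from 504 ± 130 to 361 ± 18.5 CPM (-0.48, adjusted p = 0.045), a call that held in 4 of 12 fits. DSG3, another desmosomal cadherin, is the symbol of 2 rows, neither of them called.

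In the Hippo pathway, on which AJUBA acts, 1 of 20 tested genes rose at 12 h, and 2 rose and 3 fell at 24 h. The 24 h count of 5 was 2 without T2 replicate 2 or 3, 3 without C2 replicate 3 or T2 replicate 1, and 7 without C2 replicate 2. The list's median log2 fold change was 0.00 at 12 h and -0.03 at 24 h. WWC1, which encodes the upstream scaffold KIBRA, fell at 24 h from 540 ± 103 to 332 ± 14.1 CPM (-0.70, adjusted p = 0.0025; 12 of 12 fits that left out a library). WWTR1, the co-activator TAZ, fell from 213 ± 47.6 to 143 ± 13.8 CPM (-0.57, adjusted p = 0.011; 10 of 12 fits). TEAD4, a DNA-binding partner of the co-activators, rose from 45.7 ± 7.64 to 65.8 ± 4.20 CPM (0.53, adjusted p = 0.0044; 12 of 12 fits), while TEAD2, chosen after its values were seen, fell (-0.35, adjusted p = 0.019; 8 of 12 fits). SAV1, the adaptor of the Hippo kinases, rose at both times (0.54, adjusted p = 0.049; 0.46, adjusted p = 0.048), and each call held in 2 of 12 fits. With the block at 12 h, 6 were called higher and 1 lower. With the block in C2 and T2, 1 was called at 24 h, lower, and the call of TEAD4 was lost.

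The labelled identity, kidney epithelium, was checked against markers. All 7 named epithelial and renal tubule markers were above 1 TPM, and their summed level ranged over 2266 to 2750 TPM (C1), 2045 to 2374 TPM (T1), 2472 to 2668 TPM (C2) and 1790 to 2018 TPM (T2), so that T2 lay below C2 without overlap and T1 overlapped C1. Of these 7, 1 fell at 12 h and 4 fell at 24 h, where CDH1 also fell: the sodium pump subunit ATP1B1 (-0.84, adjusted p = 0.0017), KRT18, the tight-junction claudin CLDN3 (-0.61, adjusted p = 0.015; 10 of 12 fits that left out a library) and GRHL2. PAX8, ESRP1 and CLDN7 were not called by edgeR at either time. Limma on log2(TPM + 1) called 1 of these markers higher and 3 lower at 24 h. Without T2 replicate 2, the 24 h count in edgeR was 2. The 12 h call was CLDN3 (-0.59, adjusted p = 0.035; 6 of 12 fits). With the block at 12 h, 1 of these markers was called higher and 4 lower, and of the mesenchymal markers below, 1 higher and 3 lower. With the block in C2 and T2 at 24 h, 2 of these markers were called lower and 1 mesenchymal marker higher. The 14 named mesenchymal markers summed to 2688 to 2842 TPM (C1), 3079 to 3377 TPM (T1), 1874 to 2074 TPM (C2) and 2589 to 3039 TPM (T2), with treated above control libraries of the same time without overlap, while the T2 range held that of C1. Nearly all of that sum came from VIM, S100A4 and FN1, 9 of the 14 were under 1 TPM in every library, and the fibroblast markers DCN and LUM had 0 counts throughout. Gene by gene the list did not rise: the median log2 fold change of the 7 tested was -0.89 at 12 h and -0.19 at 24 h. Of these 7, edgeR called 1 lower at 12 h and 1 higher at 24 h. DESeq2 called 1 higher and 2 lower at 12 h, and 1 higher and 1 lower at 24 h. VIM, the intermediate filament vimentin, rose at 24 h, as CDH2 did, from 1177 ± 31.9 to 2145 ± 264 CPM (0.87, adjusted p = 0.00029; 12 of 12 fits that left out a library) and was lower in C2 than in C1 (-0.77, adjusted p = 0.017), where it stood at 2009 ± 53.7 CPM. At 12 h the direction differed from that of CDH2: VIM had 2466 ± 225 CPM in T1 (0.30, adjusted p = 0.082), above C1, while CDH2 was lower in T1 than in C1. Smooth-muscle actin ACTA2, at low levels (0.37 to 3.26 TPM and at most 72 counts in any library), fell at 12 h (-2.17, adjusted p = 0.013; 10 of 12 fits). The 8 endothelial and immune markers summed to 5.64 to 7.53 TPM over all libraries, and 6 of them were under 1 TPM throughout. Of 3 tested, edgeR called 0 at 12 h (1 at an unadjusted p under 0.05, 0 in DESeq2 and limma) and 1 at 24 h, VWF, lower (-0.94, adjusted p = 0.039; 5 of 12 fits). The part of these markers in the CDH1 and CDH2 results was not tested.

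Genes with a pattern like each of the 7 were sought by Pearson's r of log2 CPM over the 12 libraries, among 6421 genes with a symbol and a mean of at least 5 CPM. The libraries share groups and depth, so these values are a description. CDH1 was most like RAB11A (r = 0.99), IGF2R (0.98) and ITGB1 (0.98), and LIMA1 was most like ASCC2 (0.96), EPN3 (0.96) and ZMYND8 (0.95). For AJUBA they were IL1RL1 (0.96), QSOX2 (0.96) and PRPS1 (0.95), and for CDH2 SLC5A6 (0.95), SULF1 (0.93) and TIMP3 (0.92). CDH3 was most like USP18 (0.92), LEPROTL1 (0.89) and DTX3L (0.87). CTNNB1 was most like MPPED2 (0.97), SAMD9L (0.96) and TMEM74 (0.96), which became 0.94, 0.92 and 0.91 without C2 replicate 1. JUP had the weakest likeness, with SMAD7 (0.81), VPS26C (0.80) and ATG4A (0.80). Among the 7 themselves, CDH1 and LIMA1 had the highest r (0.87), and the r of their deviations from the group means was 0.11.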

How the data were processed

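Per the labels' protocols, polyadenylated RNA from MDCK cells was made into stranded libraries and read in pairs. The submitters' processing notes name fastp 0.23.4, STAR 2.7.10b and RSEM 1.3.3. No source used here gives the genome build or annotation. The authors deposited expected counts per gene, which are not normalized, and TPM for the same rows. The deposited sample sheet (unit: other) gave the control times. RSEM can divide reads between similar genes, so symbols with 2 rows are uncertain. No sequences are shown.

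Expected counts were rounded. In edgeR 4.0.16 (R 4.3.3), filterByExpr kept 14169 genes, TMM scaled them, and a robust quasi-likelihood fit of the 4 groups used all 12 libraries. P-values were adjusted by Benjamini-Hochberg over all tested genes. The total per library was between 20709218 and 37241313 counts for C1, between 25822695 and 30999725 for T1, between 33150371 and 38889592 for C2 and between 27915926 and 36545726 for T2. The common biological coefficient of variation came to 13.3%. Alternatives were DESeq2 1.42.0, RLE scaling, library size only, no filter, 2-group fits, the replicate number as a block, limma 3.58.1 on log2(TPM + 1) and leaving out each library. A block over all 12 libraries was added after seeing the data.

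Same-numbered libraries of C1 and T1 deviated together (r = 0.15, 0.28 and 0.11 for replicates 1, 2 and 3). C2 and T2 did not (0.06, -0.08 and -0.08).

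The 7 genes and the gene lists were chosen with earlier results of these data known. Besides the 7, the text names from each list the 2 genes with the highest mean CPM and up to 4 called genes with the largest change at each time, and for each of the 7 the 3 genes most like it. One gene of a list is not reported here and was left out of that list's counts.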

Additional observations from a re-analysis of the deposited data

Results flagged for a closer look

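CDH3, which encodes P-cadherin, had values in opposite directions at the 2 times. Every T1 library was above every C1 library, and every T2 library was below every C2 library. Libraries also did not overlap, in either direction, for 32.7% of all tested genes at 12 h and 32.8% at 24 h. The 95% interval of CDH3 at 12 h ran from -0.06 to 0.35 and so included 0. The difference between the responses was -0.44 on the log2 scale (unadjusted p = 0.0068, adjusted p = 0.27, edgeR), so it did not pass the test over all genes, and neither single response did in that fit. The 12 h response was called with the replicate block in C1 and T1 (0.14, adjusted p = 0.044) but not with the block over all 12 libraries (adjusted p = 0.28). The 24 h response was called in DESeq2 (adjusted p = 0.027) and with the block over all 12 libraries (adjusted p = 0.025).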

How the results depend on the processing

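Over all alternatives, 643 of the values of the 7 genes kept direction and side of the threshold, 25 lost their call, 14 gained one and 11 changed sign. Most of the 643 were values that had not been called in the first place. The 25 lost calls belonged to CDH2, AJUBA and LIMA1. At 24 h the CDH2 call held in 2 of 12 fits that left out a library and in 4 of 8 other fits. Of the called values of the listed genes, 582 stayed and 158 lost their call. Members called were 2 at 12 h and 4 at 24 h, with 2 or 3 at 12 h and 2 to 6 at 24 h in other fits except those named here. Genes called, beside 990 at 12 h, 2630 at 24 h, 22 for the difference of the responses, 23 for C2 against C1 and 18 for T2 against T1, came to 1646, 228, 258 and 157 in DESeq2 for all but 24 h, and to 34 (difference) and 36 (T2 against T1) without the filter. In limma on log2(TPM + 1) they came to 13 (difference), 5 (C2 against C1) and 28 (T2 against T1), with 1 member called at 12 h. In fits of the compared groups alone they came to 1673 (12 h, with CDH1, CTNNB1 and LIMA1), 1080 (24 h, with 2 members, CDH1 and LIMA1), 1 (C2 against C1) and 243 (T2 against T1).

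With the replicate block in the compared groups, 4339 genes and 5 members were called at 12 h and 306 genes and 1 member (CDH1) at 24 h, where the numbers were not taken as pairs. The block gave 0 for the difference, 1 for C2 against C1 and 1297 for T2 against T1, with 2 members, CDH2 and CDH3. With the block over all 12 libraries the difference had 0 and C2 against C1 had 3. That fit called CDH1 and LIMA1 at 12 h, and CDH1, CDH3, LIMA1 and AJUBA at 24 h.

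Leaving out 1 library gave 185 to 1695 genes and 1 to 3 members at 12 h, and 1138 to 3332 genes and 2 to 5 members at 24 h. It gave 0 to 372 genes and 0 to 1 member for the difference, 1 to 285 genes and 0 to 1 member for C2 against C1, and 1 to 103 genes for T2 against T1. At 12 h the count was lowest without T1 replicate 3 (185), T1 replicate 1 (265), C1 replicate 3 (358), C1 replicate 1 (402) and C1 replicate 2 (467), and highest without C2 replicate 1 (1693) or 2 (1695). At 24 h it was lowest without T2 replicate 3 (1138), T2 replicate 2 (1269) and C2 replicate 3 (1640).

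Signs that changed belonged to values near 0. Leaving out a library gave JUP at 12 h -0.0068 to 0.10, CTNNB1 in the difference -0.22 to 0.11, LIMA1 in the difference -0.070 to 0.021, CDH1 in C2 against C1 -0.066 to 0.078 and CTNNB1 in C2 against C1 -0.18 to 0.15. The CDH2 call at 24 h was also lost without the filter (adjusted p = 0.057) and in the fit of C2 and T2 alone (0.15), and that of AJUBA in the latter (0.060). The cause of these changes was not tested. Depth limits CDH2, at 16 to 134 counts per library, more than the other members.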
